A study of Mus musculus with 20 samples.

Results

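The cell cycle and DNA replication genes described here are 40 genes chosen by symbol from a table of 24054 genes measured in whole mouse lung. All 40 were found in the table and all 40 were among the 16193 genes tested. The list was drawn up with earlier results of these data known, and Mki67 was set beside the other 39 members because its level was already known to differ between the genotype labels. Its difference between those labels is therefore given as a description.

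Lungs of female mice of strain C57Bl6 were sequenced in 4 groups of 5 libraries, each library titled a biological replicate. The groups were mice labelled Alox15 knockout given house dust mite extract (KO_HDM), mice labelled Alox15 knockout given saline (KO_saline), wild type mice given the extract (WT_HDM) and wild type mice given saline (WT_saline). House dust mite (HDM) extract is a common airway allergen; the series text describes a daily intranasal challenge over 14 days. Alox15 is the gene of an enzyme that adds oxygen to polyunsaturated fatty acids. The allele of the knockout and the age of the mice are not given in the sources used here.

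Cells enter a division cycle when cyclin and cyclin-dependent kinase pairs release the E2F factors, which switch on the genes for DNA synthesis. Origins of replication are licensed in G1 by Cdc6, Cdt1 and the MCM helicase, and DNA is copied in S phase with the sliding clamp Pcna and with nucleotides made by Rrm1, Rrm2, Tyms and Tk1. FoxM1 and MYB-containing complexes then drive the genes of G2 and mitosis, among them Ccnb1, Plk1 and the spindle motors. In a resting lung few cells divide, and in allergic inflammation lymphocytes, macrophages and epithelial cells are known to proliferate. Mki67 encodes Ki-67, a nuclear protein of cycling cells that coats mitotic chromosomes and is widely used as a proliferation marker.

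Promoters are shown here because the members fall into replication and mitotic genes, which are known to carry different control elements: E2F sites in many replication genes, and a cell cycle homology region (CHR) with CCAAT boxes in many mitotic genes. The sequences come from RefSeq, mouse build GRCm38.p6, and 31 of the 40 members had an entry, with 32 promoters. Each runs 5′ to 3′ on the gene's own strand. Capitals mark matches, on either strand, to the CHR (TTTGAA), to CCAAT, or to one of 4 E2F forms (TTTGGCGC, TTTCCCGC, TTTCGCGC, TTTGCCGC). Matches of E2F forms on opposite strands overlap in Mcm5 and Mcm6 and appear as 1 longer run. The stretch shown for Mki67 lies at chr7:135716451-135716579 on the minus strand, Top2a at chr11:99024200-99024389 (minus), Cdk1 at chr10:69352913-69353112 (minus), Cdc20 at chr4:118437344-118437543 (minus), Mcm5 at chr8:75109309-75109467 (plus) and Mcm6 at chr1:128359706-128359905 (minus).
Mki67: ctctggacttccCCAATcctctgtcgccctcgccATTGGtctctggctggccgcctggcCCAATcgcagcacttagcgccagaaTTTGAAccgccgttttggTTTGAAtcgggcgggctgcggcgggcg
Top2a: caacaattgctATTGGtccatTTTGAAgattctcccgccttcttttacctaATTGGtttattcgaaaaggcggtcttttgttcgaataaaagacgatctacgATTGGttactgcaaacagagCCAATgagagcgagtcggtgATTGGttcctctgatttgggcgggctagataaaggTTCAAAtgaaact
Cdk1: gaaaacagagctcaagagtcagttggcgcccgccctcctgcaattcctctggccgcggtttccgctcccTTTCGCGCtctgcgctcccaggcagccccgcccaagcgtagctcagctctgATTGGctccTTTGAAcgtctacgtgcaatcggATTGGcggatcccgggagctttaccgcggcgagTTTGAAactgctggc
Cdc20: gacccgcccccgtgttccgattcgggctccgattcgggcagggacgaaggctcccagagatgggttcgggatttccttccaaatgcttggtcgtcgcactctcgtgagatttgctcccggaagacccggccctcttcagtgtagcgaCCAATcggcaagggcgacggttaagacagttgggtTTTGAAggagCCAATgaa
Mcm5: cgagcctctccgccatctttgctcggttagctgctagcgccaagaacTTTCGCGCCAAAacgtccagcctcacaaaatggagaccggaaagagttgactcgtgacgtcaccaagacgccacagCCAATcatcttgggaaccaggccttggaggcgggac
Mcm6: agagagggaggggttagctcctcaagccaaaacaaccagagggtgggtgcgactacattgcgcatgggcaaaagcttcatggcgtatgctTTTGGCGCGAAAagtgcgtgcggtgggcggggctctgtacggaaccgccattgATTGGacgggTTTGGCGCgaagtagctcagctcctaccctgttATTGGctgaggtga

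The Mki67 stretch held 2 CHR and 3 CCAAT matches, that of Top2a 2 and 5, and that of Cdc20 1 and 2, with no E2F match in any of the 3. The stretches of the helicase genes Mcm5 and Mcm6 held E2F and CCAAT matches and no CHR match, and that of Cdk1 held all 3 motifs. Promoters were searched over 300 bases, from 250 before to 50 after the start. Mitotic members here are those of the kinase, checkpoint and spindle roles, without Mki67 and Cdk1, and replication members those of licensing, helicase, clamp and precursors. The CHR letters were in 9 of 13 promoters of mitotic members (69.2%) and in 1 of 13 promoters of replication members (7.69%), beside 17.9% of all 32851 promoters in the table. E2F letters were in 0 of 13 promoters of mitotic members and in 6 of 13 promoters of replication members (46.2%), beside 2.26% of all promoters. CCAAT was in 11 of 13 promoters of mitotic members (84.6%) and 9 of 13 of replication members (69.2%), beside 37.4% of all promoters. These are letter matches in a window and say nothing of binding in these lungs.

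Library totals ran from 17840138 to 21082770 counts in KO_HDM, from 21120878 to 23305673 in KO_saline, from 12573113 to 20662632 in WT_HDM and from 15601878 to 21715842 in WT_saline. Levels are CPM, the share of a library's counts on a common scale, after TMM scaling. The targeted gene did not read lower in the libraries labelled knockout: Alox15 lay between 35 and 45.5 CPM in KO_HDM and between 38.4 and 44.7 CPM in KO_saline, against 7.92 to 29.8 CPM in WT_HDM and 0.825 to 11.1 CPM in WT_saline. Gene-level counts do not show which exons were read, so the genotype is used here as a label. All 8 lung epithelial markers (Sftpc and others) were detected in every group. Libraries stood apart within the wild type: WT_saline 4 was the highest of its group for 36 of the 40 members, and WT_HDM 5 was the lowest of its group for 39. In WT_saline 4, markers of T cells summed to 338 CPM and markers of B cells to 515 CPM, against 35.8 to 53.2 CPM and 102 to 141 CPM in the other 4 libraries of its group. WT_HDM 5 had the lowest B cell sum of its group, 143 CPM, against 329 to 524 CPM in the others. In the labelled knockout groups KO_HDM 5 was the lowest for 29 members and KO_saline 4 the highest for 22. In KO_saline 4, T cell markers summed to 126 CPM and B cell markers to 158 CPM. The others of its group held 42.2 to 50.4 CPM and 57.6 to 79.7 CPM. In KO_HDM 5, fat markers summed to 869 CPM and muscle markers to 2190 CPM. The others of its group held 3.06 to 41.4 CPM and 53.5 to 105 CPM. Fat and muscle sums were also high in WT_HDM 2 (721 and 4080 CPM), the highest of its group for 35 members. They were 903 and 3330 CPM in WT_HDM 4, 508 and 2040 CPM in WT_saline 2, and 614 and 542 CPM in WT_saline 4. The remaining wild type libraries held 8.47 to 33.2 CPM and 60.4 to 378 CPM. The part of these cells in the values of the members was not tested.

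HDM against saline in the mice labelled knockout asked how the allergen changed the cycle genes on that background. All 40 members rose and 0 fell, and for all 40 the lowest KO_HDM library lay above the highest KO_saline library. Among all tested genes 26.2% were called higher and 25.7% lower, and in 22.1% the KO_HDM libraries lay wholly above the KO_saline ones. The median log2 fold change of the members was 1.88, beside 0.02 for all tested genes, with Mcm4 at the low end (0.50) and Top2a at the high end (2.97). "Called", "rose" and "fell" refer to an adjusted p under 0.05 in edgeR's quasi-likelihood test with Benjamini-Hochberg adjustment over all tested genes.

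HDM against saline in wild type mice gave 35 of 40 members higher and 0 lower, beside 13.6% of all tested genes called higher and 16.5% lower. For 12 members the groups did not overlap, 30% of the list beside 5.93% of tested genes. Those 12 were Mki67, E2f1, Foxm1, Ccne2, Gins1, Bub1, Bub1b, Ttk, Kif11, Kif23, Cenpe and Cenpf. The median log2 fold change was 1.22, beside -0.02 for all tested genes, and the members ran between Mcm4 (0.24) and Cenpe (2.21). The 5 members that did not pass were Mcm4 (0.24, adjusted p = 0.136), Mcm7 (0.31, adjusted p = 0.119), Gins2 (0.74, adjusted p = 0.0525), Pcna (0.38, adjusted p = 0.0584) and Tyms (0.35, adjusted p = 0.276).

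**Figure D1:**
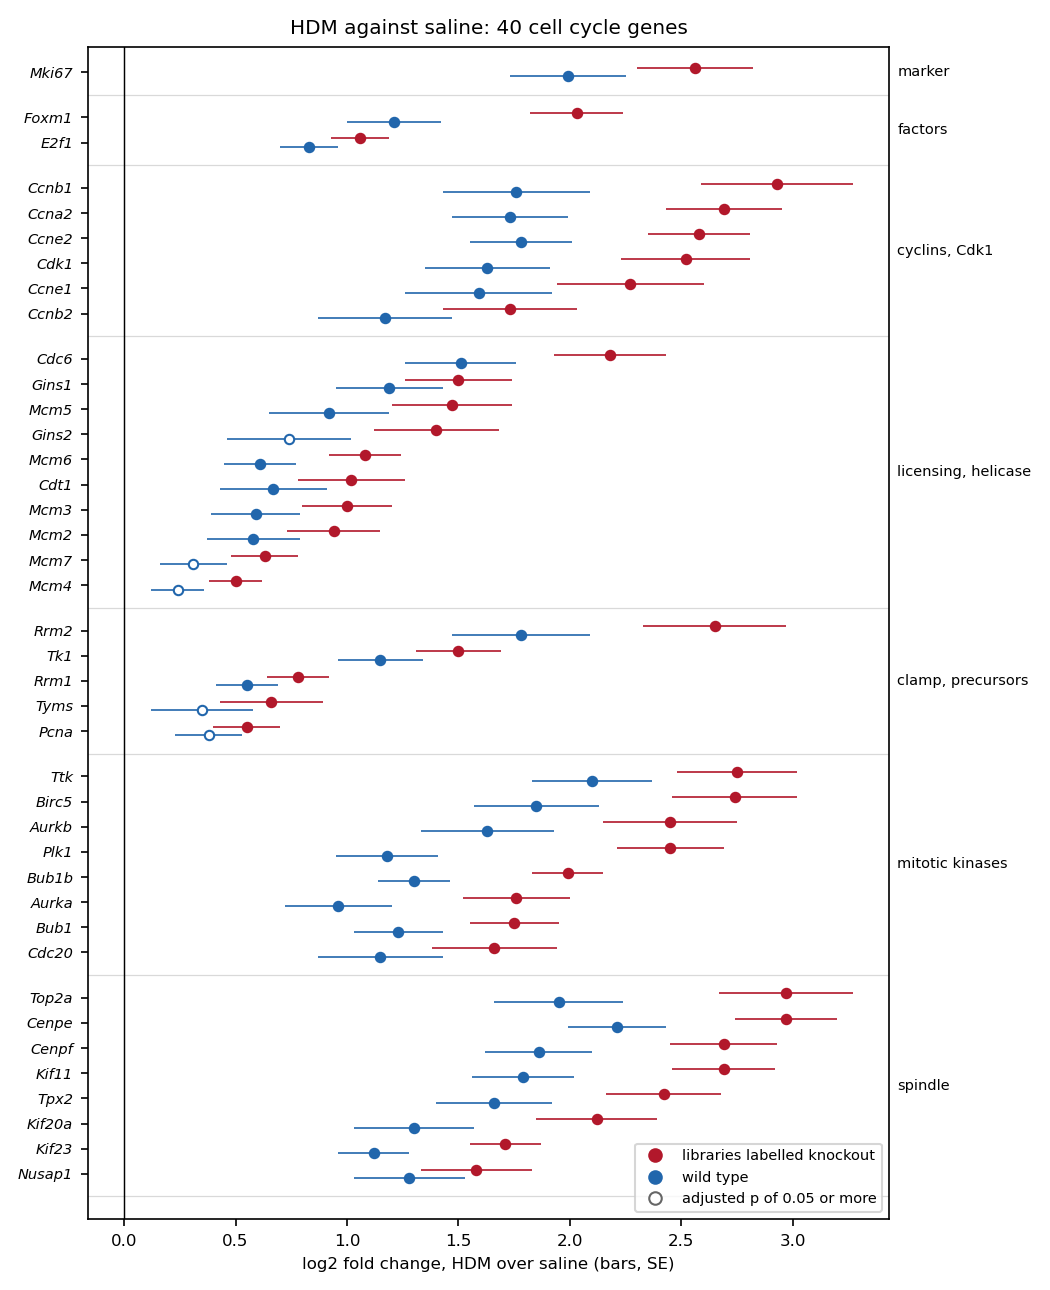
Log2 fold change of HDM over saline (horizontal axis) for each of the 40 members, grouped by role; red points are the libraries labelled knockout, blue points wild type, bars are standard errors and open points had an adjusted p of 0.05 or more. All 80 points lie right of 0, and the 5 open points are Mcm4, Mcm7, Gins2, Pcna and Tyms in wild type.

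By role, the median log2 fold change in the labelled knockout was 2.55 for the 6 cyclin and Cdk1 genes, 2.55 for the 8 genes of spindle motors, centromere and chromosome structure, and 2.22 for the 8 mitotic kinase and checkpoint genes. It was 1.05 for the 10 licensing and helicase genes and 0.78 for the 5 genes of the clamp and of DNA precursors. In wild type the median was 1.68 for the cyclin and Cdk1 genes, 1.72 for the spindle group, 1.27 for the mitotic kinase group, 0.64 for the licensing and helicase genes and 0.55 for the clamp and precursor genes. Every gene of the cyclin, spindle and mitotic kinase groups was called in wild type, beside 7 of 10 licensing and helicase genes and 3 of 5 clamp and precursor genes. Below, KO before a log2 fold change stands for HDM against saline in the mice labelled knockout, and WT for the same in wild type.

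Among the regulators, E2f1 encodes a factor that activates S phase genes. E2f1 had 22.7, 23.6, 19.6, 19.9 and 26.4 CPM in KO_HDM, against 11.5, 10.8, 10.5, 9.65 and 11.4 CPM in KO_saline. It had 18.2, 24, 27.4, 21.2 and 15.5 CPM in WT_HDM, against 10.6, 12.2, 13.9, 10.6 and 12.2 CPM in WT_saline. Every HDM library lay above every saline library of its genotype label, with log2 fold changes of 1.06 ± 0.13 (SE; adjusted p = 2.52e-06) in the labelled knockout and 0.83 ± 0.13 (adjusted p = 0.000126) in wild type. Foxm1, whose product activates genes of G2 and mitosis, had 15.4, 17.3, 18.3, 20.2 and 15 CPM in KO_HDM, against 3.54, 4.27, 4.88, 5.7 and 2.69 CPM in KO_saline. The wild type libraries held 10.9, 15.8, 12.3, 12.7 and 6.63 CPM of Foxm1 under HDM, against 4.06, 5.03, 5.05, 6.4 and 4.52 CPM under saline. The groups did not overlap, although WT_HDM 5 (6.63) lay close to WT_saline 4 (6.4). Foxm1 rose by 2.03 ± 0.21 (adjusted p = 3.5e-07) in KO and by 1.21 ± 0.21 (adjusted p = 0.000274) in WT on the log2 scale.

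Cyclin A2, encoded by Ccna2, partners the kinases of S phase and of entry into mitosis. Ccna2 had 41.6, 33.3, 40.2, 46.1 and 32.7 CPM in KO_HDM, against 4.02, 7.66, 5.81, 6.52 and 5.93 CPM in KO_saline. In wild type it had 23, 31.2, 18.3, 23.6 and 9.41 CPM under HDM, against 5.9, 5.08, 5.16, 10.2 and 5.47 CPM under saline. The wild type groups overlapped through a single pair of libraries, WT_HDM 5 and WT_saline 4. Log2 fold changes were 2.69 ± 0.26 (adjusted p = 2.2e-07) in the labelled knockout and 1.73 ± 0.26 (adjusted p = 8.9e-05) in wild type. Ccne2, a cyclin of the G1 to S transition, had 11.3, 11.5, 10, 13 and 10.6 CPM in KO_HDM, against 1.1, 1.69, 1.58, 3 and 2.01 CPM in KO_saline. Its wild type values were 8.71, 9.98, 7.85, 8.33 and 4.31 CPM under HDM, against 2.41, 2.64, 1.81, 2.44 and 2.07 CPM under saline. HDM and saline libraries did not overlap in either genotype label, and Ccne2 rose by 2.58 ± 0.23 (adjusted p = 6.88e-08) in KO and 1.78 ± 0.23 (adjusted p = 1.48e-05) in WT. The mitotic cyclin Ccnb1 (KO 2.93, WT 1.76), its kinase Cdk1 (KO 2.52, WT 1.63), Ccne1 (KO 2.27, WT 1.59) and Ccnb2 (KO 1.73, WT 1.17) were called in both as well; Ccnb2 missed the threshold when the 10 wild type libraries were fitted alone (1.18, adjusted p = 0.0508).

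**Figure D2:**
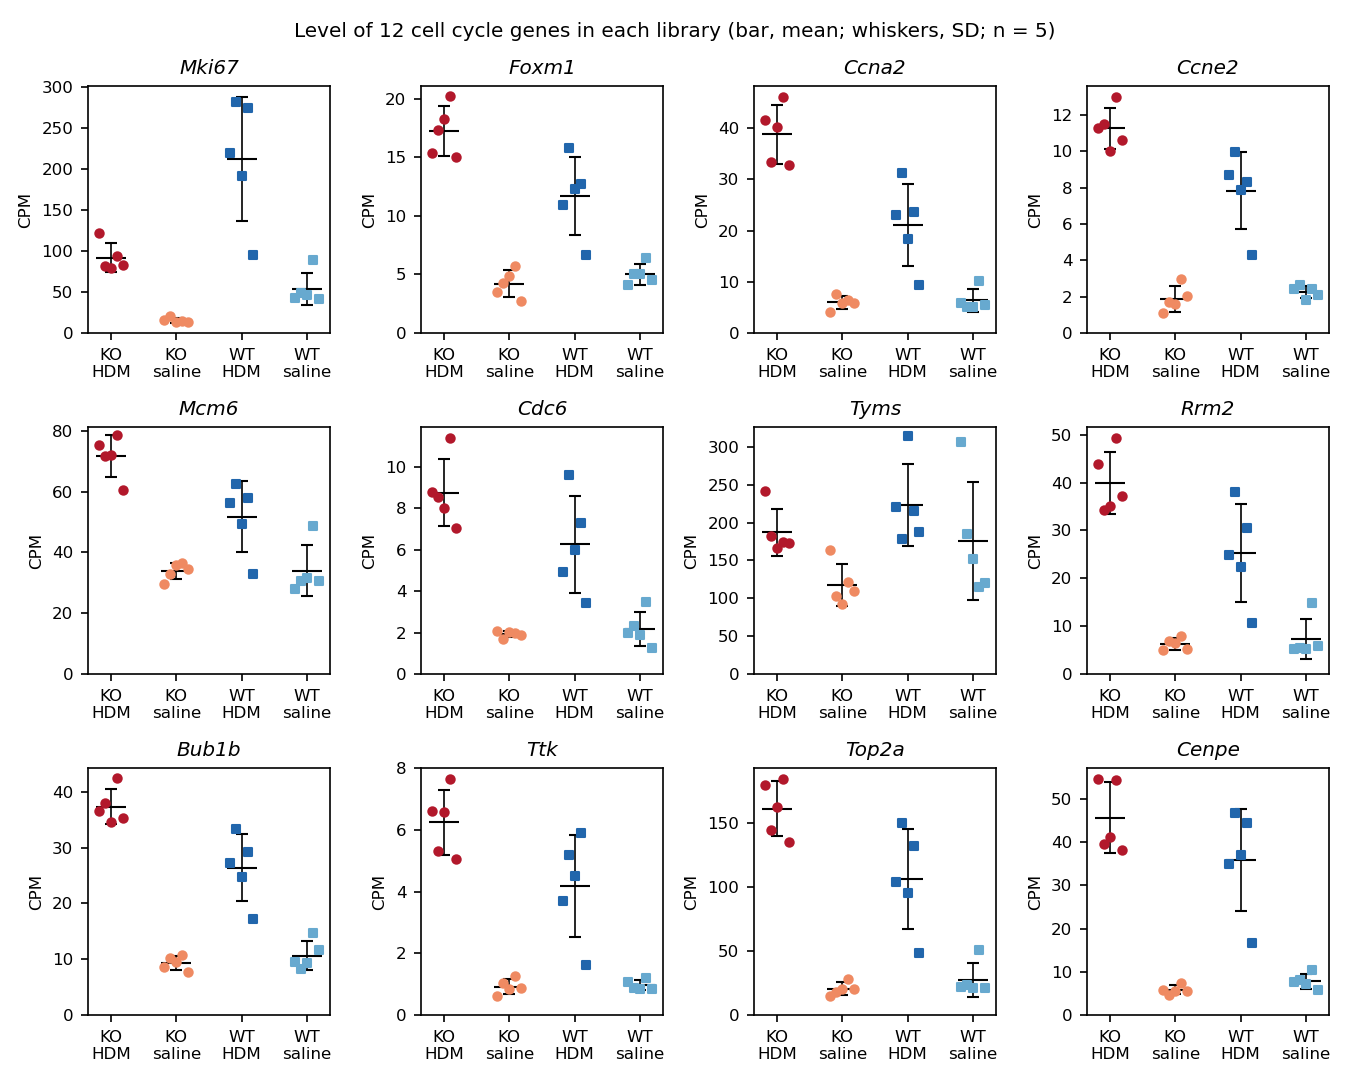
Level in CPM (vertical axis, from 0) of 12 members in each library; circles are KO_HDM and KO_saline, squares WT_HDM and WT_saline, the bar is the mean and whiskers the SD of 5 libraries. In the Mki67 panel KO_HDM runs from 79.8 to 122 CPM and WT_HDM from 95.6 to 281 CPM; in the Tyms panel, where the wild type groups overlap widely, the KO_HDM mean likewise lies below the WT_HDM mean.

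Among the licensing and helicase genes, Mcm6, a subunit of the replicative helicase, had 75.3, 71.6, 72.2, 78.6 and 60.4 CPM in KO_HDM, against 29.6, 32.8, 35.9, 36.5 and 34.6 CPM in KO_saline. It had 56.2, 62.6, 49.2, 57.8 and 32.8 CPM in WT_HDM, against 28.1, 30.6, 31.7, 48.8 and 30.5 CPM in WT_saline. The labelled knockout groups were separate, and the wild type groups overlapped only through WT_HDM 5 and WT_saline 4. Mcm6 rose by 1.08 ± 0.16 (adjusted p = 1.44e-05) in KO and by 0.61 ± 0.16 (adjusted p = 0.00632) in WT. Fitted on the 10 wild type libraries alone, 5 of the 7 calls of this role in wild type were lost: Mcm6 (0.61, adjusted p = 0.051), Mcm5 (0.93, adjusted p = 0.0936), Cdt1 (0.68, adjusted p = 0.131), Mcm2 (0.59, adjusted p = 0.136) and Mcm3 (0.60, adjusted p = 0.129). Cdc6, which loads the helicase onto origins, had 8.75, 8.53, 7.98, 11.4 and 7.06 CPM in KO_HDM, against 2.06, 1.69, 2.02, 2 and 1.87 CPM in KO_saline. In wild type it had 4.94, 9.6, 5.98, 7.29 and 3.42 CPM under HDM, against 1.97, 2.33, 1.86, 3.45 and 1.27 CPM under saline. Cdc6 had the largest log2 fold change of its role, 2.18 ± 0.25 (adjusted p = 1.39e-06) in KO and 1.51 ± 0.25 (adjusted p = 0.000232) in WT, with an overlap in wild type of WT_HDM 5 and WT_saline 4 alone. The helicase loader Cdt1 (KO 1.02, WT 0.67), the helicase subunits Mcm2 (KO 0.94, WT 0.58), Mcm3 (KO 1.00, WT 0.59) and Mcm5 (KO 1.47, WT 0.92), and Gins1 (KO 1.50, WT 1.19), of the complex that activates the helicase, were called in both. Mcm4 (0.50), Mcm7 (0.63) and Gins2 (1.40) were called in the labelled knockout.

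Several wild type calls of this role also changed when a single library was left out or another tool was used. Cdt1, Mcm2 and Mcm3 each lost their call without WT_saline 1, 2, 3 or 5 or without WT_HDM 1, 2 or 4. Adjusted p then lay between 0.0725 and 0.104 for Cdt1, between 0.0639 and 0.107 for Mcm2 and between 0.054 and 0.0814 for Mcm3. Cdt1 also lost its call without WT_HDM 3 (adjusted p = 0.0667), KO_HDM 2 (0.0543) or KO_HDM 3 (0.053), and with limma voom (0.0511). Mcm2 also lost its call without the libraries that held 50 CPM or more of the fat cell gene Adipoq (adjusted p = 0.0568). Without WT_saline 4, Mcm4 (0.35, adjusted p = 0.024), Mcm7 (0.46, adjusted p = 0.00951) and Gins2 (1.01, adjusted p = 0.0081) were called. Without WT_HDM 5, the same 3 were called at 0.36 (adjusted p = 0.0252), 0.43 (adjusted p = 0.028) and 0.98 (adjusted p = 0.0042). With all libraries kept, Gins2 was called by DESeq2 (0.75, adjusted p = 0.0381) and by edgeR without the ribosomal RNA gene Rn45s (0.79, adjusted p = 0.0428). It was also called without KO_saline 1 (adjusted p = 0.049) or KO_saline 3 (adjusted p = 0.0498).

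Of the clamp and precursor genes, Tyms encodes thymidylate synthase, which makes the thymidine nucleotide. Tyms had 242, 182, 166, 174 and 173 CPM in KO_HDM, against 164, 103, 92.8, 122 and 109 CPM in KO_saline. It had 220, 178, 315, 215 and 187 CPM in WT_HDM, against 306, 185, 152, 115 and 120 CPM in WT_saline. KO_HDM 1 and KO_saline 1 were the highest libraries of their groups, and the wild type groups overlapped widely, with WT_saline 1 near the top of both. Tyms rose by 0.66 ± 0.23 (adjusted p = 0.0229) in the labelled knockout, a call lost without KO_HDM 1 (0.52, adjusted p = 0.0771), and among the alternatives run was called in wild type only without WT_saline 1 (0.63, adjusted p = 0.0147). Rrm2, the regulatory subunit of ribonucleotide reductase, had 43.9, 34.3, 35.1, 49.3 and 37.1 CPM in KO_HDM, against 4.93, 6.95, 6.42, 8.04 and 5.33 CPM in KO_saline. In wild type it had 24.8, 38.1, 22.3, 30.5 and 10.6 CPM under HDM, against 5.2, 5.39, 5.32, 14.8 and 5.89 CPM under saline. Rrm2 rose by 2.65 ± 0.32 (adjusted p = 2.25e-06) in KO and 1.78 ± 0.31 (adjusted p = 0.000381) in WT, with WT_HDM 5 below WT_saline 4. The catalytic subunit Rrm1 (KO 0.78, WT 0.55) and the thymidine kinase Tk1 (KO 1.50, WT 1.15) were called in both, and the clamp Pcna in the labelled knockout (0.55). Rrm1 missed the threshold when the 10 wild type libraries were fitted alone (0.55, adjusted p = 0.0503). In wild type Pcna was called without WT_saline 4 (0.50, adjusted p = 0.0108), WT_HDM 5 (0.51, adjusted p = 0.00821), WT_HDM 3 (0.48, adjusted p = 0.0291) or KO_saline 1 (0.41, adjusted p = 0.0484). With all libraries kept, Pcna was called by DESeq2 (0.39, adjusted p = 0.0422), and by edgeR with no filter on low counts (0.41, adjusted p = 0.0477) or without Rn45s (0.42, adjusted p = 0.0383).

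Of the mitotic kinases and checkpoint genes, Bub1b, which holds back anaphase until chromosomes are attached, had 36.5, 37.9, 34.6, 42.5 and 35.2 CPM in KO_HDM, against 8.57, 10.2, 9.46, 10.8 and 7.75 CPM in KO_saline. It had 27.3, 33.3, 24.8, 29.2 and 17.2 CPM in WT_HDM, against 9.52, 8.24, 9.3, 14.6 and 11.6 CPM in WT_saline. No HDM library reached down to a saline library of its label, and Bub1b rose by 1.99 ± 0.16 (adjusted p = 2.71e-08) in KO and 1.30 ± 0.16 (adjusted p = 1.2e-05) in WT. Ttk, the checkpoint kinase Mps1, had 6.62, 5.31, 6.57, 7.66 and 5.07 CPM in KO_HDM, against 0.622, 1.03, 0.836, 1.26 and 0.866 CPM in KO_saline. Under HDM the wild type libraries held 3.71, 5.18, 4.51, 5.9 and 1.63 CPM of Ttk, against 1.08, 0.881, 0.851, 1.2 and 0.848 CPM under saline. Groups were again separate, at 2.75 ± 0.27 (adjusted p = 2.29e-07) in KO and 2.1 ± 0.27 (adjusted p = 1.79e-05) in WT. The other 6, the kinases Plk1 (KO 2.45, WT 1.18), Aurka (KO 1.76, WT 0.96), Aurkb (KO 2.45, WT 1.63) and Bub1 (KO 1.75, WT 1.23), survivin, encoded by Birc5 (KO 2.74, WT 1.85), and the anaphase activator Cdc20 (KO 1.66, WT 1.15), were called in both.

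Of the spindle and chromosome genes, Top2a encodes the topoisomerase that untangles sister chromosomes. Top2a had 179, 144, 162, 184 and 135 CPM in KO_HDM, against 14.8, 18.1, 20.4, 28.4 and 20.6 CPM in KO_saline. It had 104, 150, 95.3, 132 and 48.2 CPM in WT_HDM, against 21.5, 23.2, 20.8, 50.9 and 20.9 CPM in WT_saline. WT_HDM 5 and WT_saline 4 were the only overlapping pair, and Top2a rose by 2.97 ± 0.30 (adjusted p = 3.38e-07) in KO and 1.95 ± 0.29 (adjusted p = 8.46e-05) in WT. Cenpe, a motor that carries chromosomes to the spindle equator, had 54.7, 39.6, 41.3, 54.4 and 38.2 CPM in KO_HDM, against 5.89, 4.6, 5.5, 7.48 and 5.65 CPM in KO_saline. Its wild type values were 34.9, 46.8, 37, 44.4 and 16.7 CPM under HDM, against 7.55, 8.13, 7.07, 10.4 and 5.75 CPM under saline. Cenpe did not overlap between treatments and rose by 2.97 ± 0.23 (adjusted p = 1.74e-08) in KO and 2.21 ± 0.22 (adjusted p = 1.56e-06) in WT. The other 6 genes of this role, Kif11, Kif20a, Kif23, Cenpf, Nusap1 and Tpx2, were called in both and ran between 1.58 (Nusap1) and 2.69 (Kif11 and Cenpf) in the labelled knockout.

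Other genes of the same pathways moved alongside. For scale, 26.2% of all tested genes were called higher and 25.7% lower in the labelled knockout, and 13.6% and 16.5% in wild type. Of 38 further DNA replication genes, 29 rose and 2 fell (Pold2 and Gins4) in the labelled knockout, and 22 rose and 0 fell in wild type. Among those with the smallest adjusted p were Dbf4, the activator of the origin-firing kinase Cdc7 (KO 1.46, WT 1.09), and the replication initiation factor Mcm10 (KO 2.40, WT 1.56). Of 39 further mitosis genes, 37 rose and 0 fell in the labelled knockout, and 37 rose and 1 fell in wild type. The condensin subunit Ncapg had the smallest adjusted p of them in both (KO 3.64 ± 0.31, adjusted p = 4.35e-08; WT 2.70 ± 0.30, adjusted p = 4.16e-06). The 1 that fell was Pttg1, securin (-0.47 ± 0.13, adjusted p = 0.0109).

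In whole lung more cells of a type and more RNA per cell cannot be told apart, and markers of several cell types moved under HDM as well. Of 5 plasma cell markers 4 rose in each genotype label, with sums of 1090 to 2030 CPM in KO_HDM against 373 to 489 CPM in KO_saline, and 517 to 914 CPM in WT_HDM against 313 to 388 CPM in WT_saline. Of 6 germinal centre B cell markers 4 rose in each (sums of 75.2 to 110 CPM in KO_HDM against 83.6 to 93.4 CPM in KO_saline, and 85 to 120 CPM in WT_HDM against 69.9 to 92.8 CPM in WT_saline), and 1 fell in wild type. Of 7 macrophage and monocyte markers 6 rose and 1 fell in the labelled knockout (4920 to 8160 CPM in KO_HDM against 3700 to 5370 CPM in KO_saline), and 3 rose and 1 fell in wild type (2840 to 5420 CPM in WT_HDM against 2630 to 3900 CPM in WT_saline). Of 6 B cell markers 3 rose in the labelled knockout (131 to 390 CPM in KO_HDM against 57.6 to 158 CPM in KO_saline) and 1 rose in wild type (143 to 524 CPM in WT_HDM against 102 to 515 CPM in WT_saline). All 5 endothelial markers fell in both, with sums of 1020 to 2040 CPM in KO_HDM against 3480 to 3660 CPM in KO_saline, and 1310 to 2410 CPM in WT_HDM against 2500 to 3770 CPM in WT_saline. No marker of these 5 lists was at 0 across a group.

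Markers of other cell types moved with HDM as well. Of 9 red blood cell markers 1 rose and 7 fell in the labelled knockout (sums of 2650 to 4570 CPM in KO_HDM against 8790 to 18100 CPM in KO_saline), and 1 rose and 6 fell in wild type (1320 to 1970 CPM in WT_HDM against 2340 to 5550 CPM in WT_saline). Of 8 lung epithelial markers 1 rose and 6 fell in the labelled knockout (13900 to 22000 CPM in KO_HDM against 32400 to 46700 CPM in KO_saline), and 2 rose and 2 fell in wild type (13300 to 28800 CPM in WT_HDM against 25200 to 37000 CPM in WT_saline). All 6 liver markers rose in the labelled knockout, with sums of 30.1 to 99 CPM in KO_HDM against 1.14 to 2.01 CPM in KO_saline. In wild type 1 liver marker rose and 1 fell, with sums of 2.77 to 6.29 CPM in WT_HDM against 1.37 to 2.98 CPM in WT_saline, and the fibrinogen gene Fgb was at 0 in every group but KO_HDM. Of 4 megakaryocyte markers 1 rose and 3 fell in each label (43.7 to 70.7 CPM in KO_HDM against 30.5 to 77.8 CPM in KO_saline, and 23.7 to 38.4 CPM in WT_HDM against 33.4 to 46.3 CPM in WT_saline). Of 7 T cell markers 1 rose in the labelled knockout (74.5 to 124 CPM in KO_HDM against 42.2 to 126 CPM in KO_saline) and 2 fell in wild type (43.5 to 90.5 CPM in WT_HDM against 35.8 to 338 CPM in WT_saline). Of 8 markers of skeletal and heart muscle 3 rose in wild type (60.4 to 4080 CPM in WT_HDM against 146 to 2040 CPM in WT_saline) and 0 were called in the labelled knockout, where Myh4 was at 0 in KO_HDM. Of the neutrophil, fibroblast and immature thymocyte lists at most 2 markers each rose and at most 1 fell in either label, and of the fat list 0 were called. Only 3 of 7 immature thymocyte, 8 of 9 red blood cell and 7 of 8 muscle markers were among the tested genes. The rest of those lists could not be called, here or between the labels. The part of these cell types in the rise of the cycle genes was not tested.

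Under saline, mice labelled knockout were compared with wild type to ask whether the genotype label alone changed the cycle genes. Of the 40 members 1, Mki67, was called, and it was lower in KO_saline. Among all tested genes 0.908% were called in this comparison and 0.315% were called lower; Mki67 was set apart for this difference, so nothing is read from these shares. None of the other 39 members passed the edgeR test. Over all 40 members 3 had an unadjusted p under 0.05 (7.5%), beside 15.7% of all tested genes, and DESeq2 and limma voom likewise called 1 member each. Of the 39, 34 had a log2 fold change below 0, with a median of -0.18 beside -0.03 for all tested genes, and they ran between Plk1 (-0.70 ± 0.23, adjusted p = 0.194) and Nusap1 (0.45 ± 0.25, adjusted p = 0.389). Markers of red blood cells and their precursors moved with the label: 7 of 9 rose, with sums of 8790 to 18100 CPM in KO_saline against 2340 to 5550 CPM in WT_saline. Of 5 neutrophil markers 1 was called higher, with sums of 145 to 215 CPM in KO_saline against 86.7 to 136 CPM in WT_saline. None of these 14 markers was at 0 across a group, and the part of these cells in the values of the members was not tested.

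**Figure D3:**
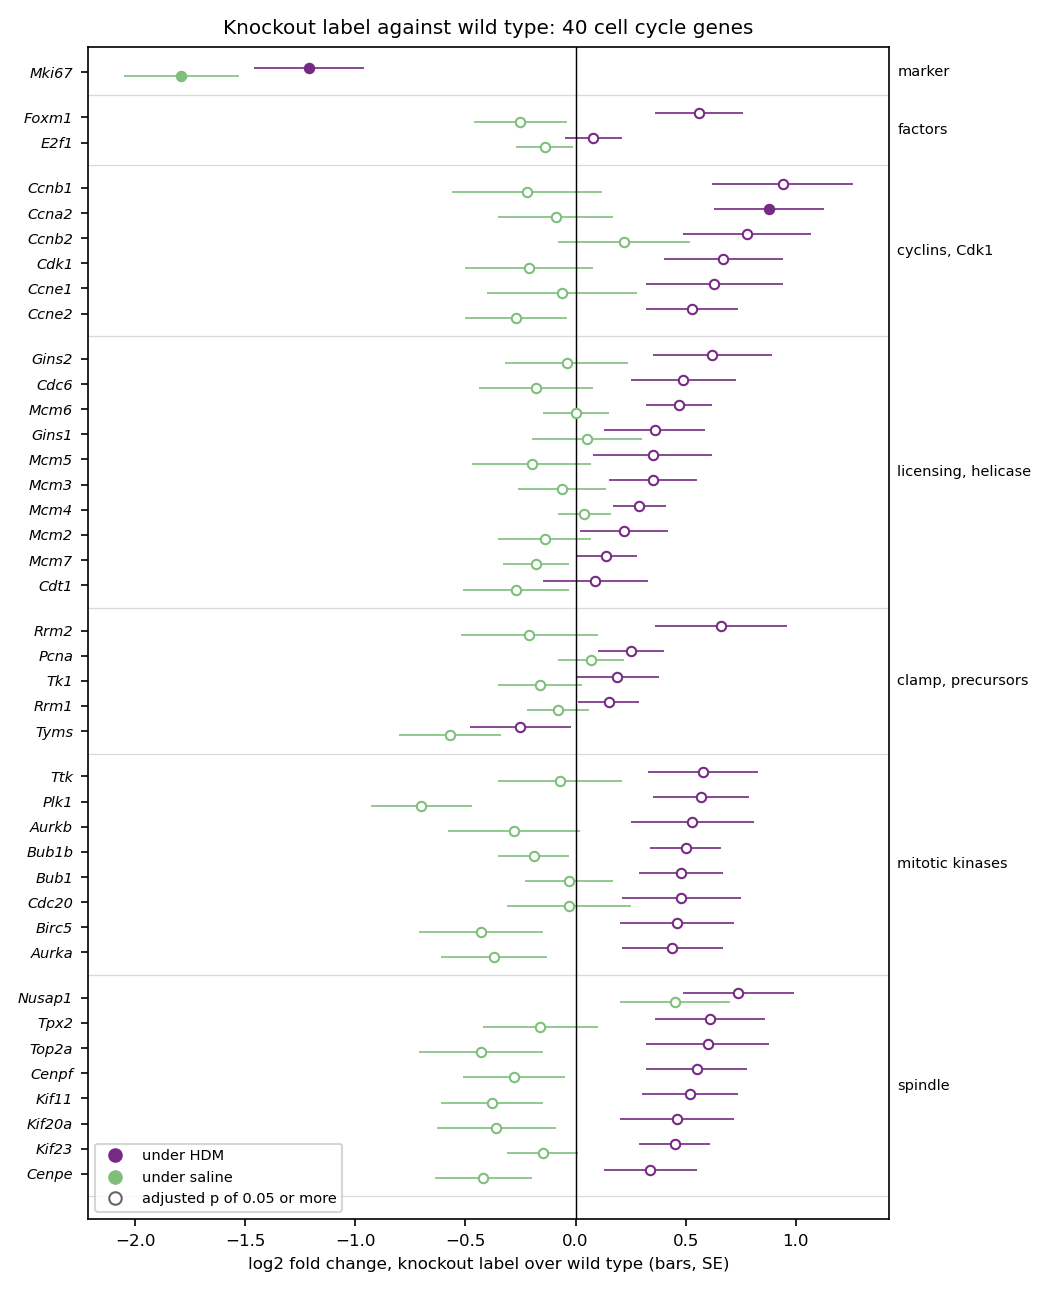
Log2 fold change of the knockout label over wild type (horizontal axis) for each of the 40 members by role; purple points are under HDM, green points under saline, bars are standard errors and open points had an adjusted p of 0.05 or more. Mki67 lies far left of 0 under HDM (-1.21) and saline (-1.79), while 38 of the other 39 members lie right of 0 under HDM.

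Under HDM, the label comparison gave 2 members past the test: Ccna2 was higher and Mki67 lower in KO_HDM. In all tested genes 6.67% were called, 4.79% higher and 1.88% lower, beside 1 member of 40 called higher (2.5%). At an unadjusted p under 0.05 there were 21 of 40 members (52.5%), beside 21.2% of all tested genes. DESeq2 called 6 members, 5 of them higher, with 9.69% of tested genes called, and limma voom called 9, 8 of them higher, with 7.05% of tested genes called. Of the 39 members without Mki67, 38 had a positive log2 fold change, with a median of 0.48 beside -0.01 for all tested genes, between Tyms (-0.25) and the mitotic cyclin Ccnb1 (0.94 ± 0.32, adjusted p = 0.0821). For 4 members, Ccne2, Ccna2, Ccnb1 and Bub1b, every KO_HDM library lay above every WT_HDM library, 4 of 40 beside 4.8% of tested genes. Ccnb1, described after its values were seen, had 22.1, 16.6, 17.3, 23.6 and 16.2 CPM in KO_HDM, against 10.9, 15.4, 6.68, 12.3 and 4.56 CPM in WT_HDM; it was called by DESeq2 (0.94, adjusted p = 0.0393) and limma voom (1.06, adjusted p = 0.0137). The WT_HDM libraries spread more widely than the KO_HDM ones, as the levels by library show.

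The call of Ccna2 (0.88 ± 0.25, adjusted p = 0.0376) depended on single libraries of 3 groups. It was lost on the 10 HDM libraries alone (0.86, adjusted p = 0.0842), without KO_HDM 1 (adjusted p = 0.0683), 2 (0.0519), 3 (0.075) or 4 (0.116), without KO_saline 3 (0.0514), 4 (0.0515) or 5 (0.0531), and without WT_HDM 1 (0.0593), 3 (0.0949), 4 (0.0632) or 5 (0.057). The number of members called was 8 without WT_HDM 2, 5 without WT_saline 4 and 4 without KO_HDM 5. It was 1, Mki67 alone, in each of the 12 fits in which Ccna2 lost its call. Shares of all tested genes called in these fits are not given here, so nothing particular to the members is read from these counts. Without the 5 libraries that held 50 CPM or more of the fat cell gene Adipoq (KO_HDM 5, WT_HDM 2, WT_HDM 4, WT_saline 2 and WT_saline 4), 29 members were called higher and 1 lower, with 7.34% of tested genes called. That setting keeps 3 WT_HDM libraries, among them WT_HDM 5, the lowest of its group for 39 members. It removes WT_HDM 2, the highest of its group for 35 members, and KO_HDM 5, the lowest of its group for 29. Macrophage and monocyte markers moved with the label under HDM: 5 of 7 were called higher, with sums of 4920 to 8160 CPM in KO_HDM against 2840 to 5420 CPM in WT_HDM. Of the 9 red blood cell markers 7 were called higher, with sums of 2650 to 4570 CPM in KO_HDM against 1320 to 1970 CPM in WT_HDM. Of 6 liver markers 5 were called higher, with sums of 30.1 to 99 CPM in KO_HDM against 2.77 to 6.29 CPM in WT_HDM, where Fgb was at 0. Of 5 neutrophil markers 3 were called higher, with sums of 121 to 302 CPM in KO_HDM against 61.8 to 155 CPM in WT_HDM. Of 8 muscle markers 3 were called lower, with sums of 53.5 to 2190 CPM in KO_HDM, where Myh4 was at 0, against 60.4 to 4080 CPM in WT_HDM. One marker each of plasma cells and megakaryocytes was called higher. The part of these cells in the values of the members was not tested.

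The interaction term asked whether the HDM response differed between the genotype labels. By edgeR's test 0 of 40 members passed, beside 1.24% of all tested genes. At an unadjusted p under 0.05 there were 17 of 40 (42.5%), beside 16% of all tested genes, while DESeq2 called 1, Plk1, and limma voom 0. Of the marker lists, 3 liver markers and 1 macrophage marker passed with a positive interaction and 1 neutrophil marker with a negative one, and their part was not tested. All 40 estimates were positive, meaning a larger rise in the labelled knockout, with a median of 0.65 beside 0.03 for all tested genes. The smallest adjusted p was that of Plk1, a kinase of mitotic entry and spindle assembly (1.26 ± 0.32, adjusted p = 0.0593), which is described here after its values were seen. Plk1 had 16.1, 13.2, 12.4, 16.2 and 13.6 CPM in KO_HDM, against 2.25, 2.4, 2.86, 3.56 and 2.01 CPM in KO_saline. It had 9.45, 12.5, 8.63, 12.3 and 5.35 CPM in WT_HDM, against 3.62, 4.72, 3.35, 6.44 and 3.06 CPM in WT_saline. The KO_HDM libraries were the highest apart from WT_HDM 2 (12.5), which passed KO_HDM 3 (12.4), and the KO_saline and WT_saline libraries overlapped only where KO_saline 4 (3.56) exceeded WT_saline 3 (3.35) and WT_saline 5 (3.06). Plk1 passed with DESeq2 (1.26, adjusted p = 0.0105), with scaling by library size alone (1.30, adjusted p = 0.0492), and without KO_saline 4 (1.40, adjusted p = 0.0406), WT_HDM 2 (1.39, adjusted p = 0.0439) or WT_saline 5 (1.37, adjusted p = 0.0432).

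Mki67 rose under HDM in both genotype labels, as did all of the other 39 members in the labelled knockout and 34 of the 39 in wild type. Mki67 had 122, 82.2, 79.8, 93.3 and 82.5 CPM in KO_HDM, against 15.3, 20.4, 13, 15.2 and 13.7 CPM in KO_saline. It had 219, 281, 191, 274 and 95.6 CPM in WT_HDM, against 42.9, 48.2, 46.4, 88.4 and 41.8 CPM in WT_saline. HDM and saline libraries did not overlap within either label. The rise was 2.56 ± 0.26 (adjusted p = 4.36e-07) in the labelled knockout and 1.99 ± 0.26 (adjusted p = 2e-05) in wild type, and the interaction was 0.58 ± 0.35 (adjusted p = 0.448).

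As a description, Mki67 in KO_saline stood at 0.29 of its WT_saline level (log2 fold change -1.79 ± 0.26), with no overlap of the groups, as in 1.14% of tested genes in that direction. In KO_HDM it stood at 0.433 of the WT_HDM level (-1.21 ± 0.25), and those groups met only where KO_HDM 1 (122) exceeded WT_HDM 5 (95.6). The other 39 members had medians of -0.18 and 0.48 in these comparisons, so Mki67 lay 1.61 and 1.69 below the median member on the log2 scale under saline and HDM. Over the alternative fits the gap ran between -1.70 and -1.50 under saline and between -1.78 and -1.63 under HDM. Since Mki67 was set apart for this difference, these ranges describe only how the gap moved with the processing and the libraries kept.

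The ratio of Mki67 to Top2a CPM was taken within each library; its size depends on transcript length, so only its difference between groups is read. The ratio was 0.572 ± 0.0773 in KO_HDM, 0.8 ± 0.262 in KO_saline, 2.01 ± 0.091 in WT_HDM and 2.01 ± 0.177 in WT_saline (SD, n = 5 each). Its range was 0.493 to 0.681 in KO_HDM, 0.536 to 1.12 in KO_saline, 1.87 to 2.1 in WT_HDM and 1.74 to 2.22 in WT_saline. No library labelled knockout overlapped a wild type library. Since Mki67 was set apart for its difference between the labels, this separation is a description and not a test. Of the libraries that stood apart in level, WT_saline 4 had the lowest ratio of the 10 wild type libraries (1.74, beside 1.87 to 2.22 in the other 9), and WT_HDM 5 (1.98) lay among the others. Against the mean log2 CPM of the other 39 members, Mki67 stood 2.02 ± 0.19 higher in KO_HDM and 1.3 ± 0.27 higher in KO_saline, beside 3.67 ± 0.17 in WT_HDM and 2.91 ± 0.13 in WT_saline (SD, n = 5 each). That mean itself was 4.48 ± 0.16 in KO_HDM and 2.65 ± 0.14 in KO_saline, and 3.97 ± 0.50 in WT_HDM and 2.78 ± 0.33 in WT_saline.

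**Figure D4:**
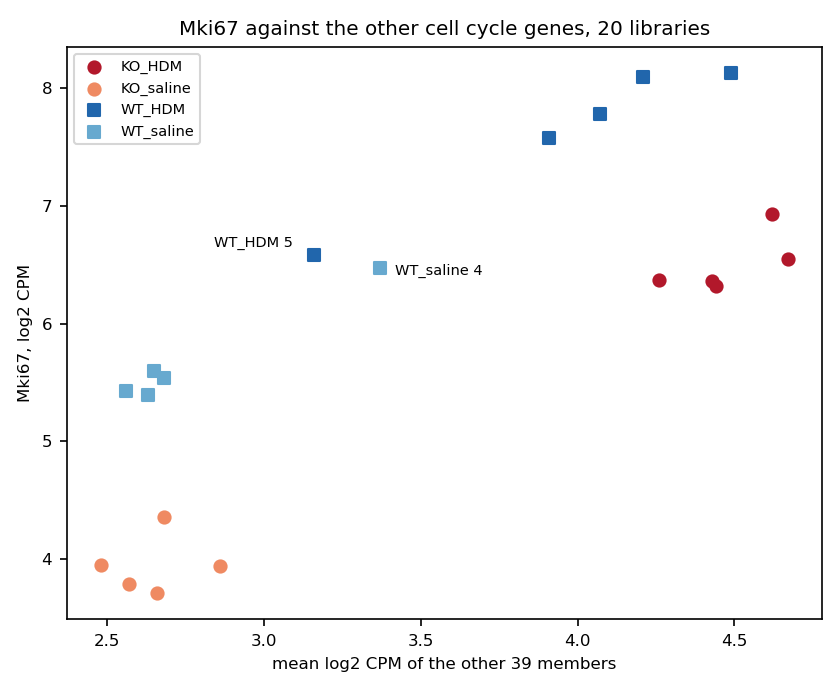
Mki67 (vertical axis, log2 CPM) against the mean log2 CPM of the other 39 members (horizontal axis) in each of the 20 libraries; circles are the libraries labelled knockout, squares wild type. The squares lie above the circles at a like level of the other members, and WT_HDM 5 and WT_saline 4 lie beside each other between the HDM and saline groups.

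The neighbourhood of Mki67 on chromosome 7 was read for a shared difference. Of the 5 tested genes on each side in RefSeq order, Fank1, Adam12, Dock1, Ptpre and 5830432E09Rik on one side and Mgmt, Ebf3, 9430038I01Rik, Glrx3 and Mapk1ip1 on the other, none was called between the labels under HDM or saline. Under HDM the 10 ran between -0.41 (Mapk1ip1) and 0.11 (Ptpre). Under saline they ran between -1.95 (Ebf3, with a standard error of 1.4) and 0.10 (Mgmt), and 5830432E09Rik, the nearest on its side, stood at -0.73 ± 0.33 (adjusted p = 0.298). The 3 other members on chromosome 7, Ccne1, Rrm1 and Plk1, were not called either. Alox15 itself lies on chromosome 11, which holds 5 members, Cdc6, Tk1, Aurkb, Birc5 and Top2a. None of these 5 was called between the labels, with log2 fold changes of 0.19 to 0.60 under HDM and -0.43 to -0.16 under saline. Among all tested genes 6.67% were called between the labels under HDM and 0.908% under saline. With shares that low, the absence of calls in these short lists on chromosomes 7 and 11 is not read as a result.

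Pttg1, securin, which restrains the enzyme that separates sister chromatids, is no member but shared the direction of Mki67 between the labels. The chromosome of Pttg1 was not read here, so the positions given above do not cover it. Of the 39 further mitosis genes it was the 1 called lower under HDM (-1.60 ± 0.13, adjusted p = 5.06e-07), where 4 others were called higher. It averaged 6.62 ± 0.871 CPM in KO_HDM and 5.05 ± 1.14 CPM in KO_saline, beside 20.1 ± 2.77 CPM in WT_HDM and 27.8 ± 1.78 CPM in WT_saline (SD, n = 5 each). Its response to HDM differed between the labels (interaction 0.86 ± 0.19, adjusted p = 0.0281): it rose in the labelled knockout (0.39, adjusted p = 0.0207) and fell in wild type. The 4 called higher in KO_HDM included Cks2, a subunit that binds cyclin-dependent kinases (0.90 ± 0.21, adjusted p = 0.0122), Ckap2l, a spindle protein (0.81 ± 0.22, adjusted p = 0.0307), and the condensin subunit Ncaph (0.44 ± 0.13, adjusted p = 0.044). None of the 38 further replication genes was called between the labels in either treatment.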

How the data were processed

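Whole-lung RNA was sequenced in 20 libraries, 5 in each of 4 groups. Per the labels' protocols, mRNA was selected with oligo-dT and libraries were made strand-specific with dUTP; the text also mentions rRNA depletion. Tools were, per the submitters' processing notes, Bowtie2 2.1.0 and RSEM 1.2.15 and the build named is hg38, although the symbols are mouse, so no coordinates were taken from the table. The authors deposited expected counts per gene, not normalized, of which 17.7% are not whole; RSEM shares reads that match several genes. Rn45s, a ribosomal transcript, took 1.21% to 6.08% of counts.

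Expected counts were rounded, filtered with filterByExpr (16193 of 24054 genes) and scaled by TMM. edgeR 4.0.16 in R 4.3.3 fitted a mean per group on all 20 libraries (16 residual degrees of freedom, robust quasi-likelihood F test), with Benjamini-Hochberg adjustment over all tested genes and a threshold of 0.05. Log2 CPM used a prior count of 2. Alternatives used DESeq2 1.42.0, limma 3.58.1, other scaling, filters and sets of libraries. P-values measure the spread between the libraries labelled biological replicates; whether each came from a separate mouse beyond that label was not stated. Scripts were tested on simulated data.

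Values in every library are given for Mki67, for the member of each role with the highest mean CPM, for the one with the largest wild type HDM response, and for members called between labels. Pathway genes are named by smallest adjusted p. Members, lists and rules were chosen with earlier results of these data known. Promoters and gene order come from RefSeq GRCm38.p6.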

Additional observations from a re-analysis of the deposited data

Results flagged for a closer look

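Values of 13 members in the 4 groups were examined for a library far from the other 4 of its group (52 groups), and 6 were found. Chance gives about 1 in 20 for a single member in a single group, but members vary together within a library. The 52 are therefore not independent looks, and the 6 are not set against that rate. WT_saline 4 stood above the others of its group for 5 members: Mki67 at 88.4 CPM (next highest 48.2), Top2a at 50.9 CPM (next 23.2), Mcm6 at 48.8 CPM (next 31.7), Rrm2 at 14.8 CPM (next 5.89) and Ccna2 at 10.2 CPM (next 5.9). The same library held the highest sums of its group for markers of T cells, B cells, immature thymocytes and fat. Immature thymocyte markers summed to 45.4 CPM, against 16 to 23.2 CPM in the others. Fat markers summed to 614 CPM, against 16 to 508 CPM. The part of these cells in the values was not tested. KO_HDM 1 stood above its group for Tyms at 242 CPM (next 182).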

How the results depend on the processing

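Alternative fits were run for the 5 counts of members called, for the gap of Mki67 to the other members and for the named genes; no called estimate changed sign, and no scaling moved the median of all genes by over 0.1. The count for HDM in the labelled knockout was 39 to 40, that for HDM in wild type was 28 to 39 (39 without WT_saline 4 or WT_HDM 5, 28 on the 10 compared libraries alone), and that for the labels under saline was 1 in every fit. The count for the labels under HDM, 2, was 6 with DESeq2, 9 with limma voom, 1 on the 10 compared libraries alone, 30 without the libraries with Adipoq of 50 CPM or more, 1 at an adjusted p under 0.01, and 1 to 8 with a single library left out. The interaction count, 0, was 1 with library size alone and with DESeq2, and 0 to 1 with a single library left out. With the replicate number as a block the count for the labels under HDM was 10 and that for the interaction 2 (Plk1 and Foxm1), and Gins2 was called for HDM in wild type (adjusted p = 0.0473), but the labels do not tie a number to a shared animal or batch. Deviations of same-numbered libraries correlated at over 0.1 in 17 of 30 pairs (-0.46 to 0.51), and 7 of 20 libraries correlated best with their own number, so the numbers were not taken to pair the samples. The cause of these changes was not tested. Shares of all tested genes called are not set beside the counts of this paragraph, so nothing particular to the members is read from the changes. Depth limits the low members, such as Ttk at 0.622 to 1.26 CPM in KO_saline.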

Other observations

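Of a list of 7 further G1 cyclins and kinases, the median log2 fold change of HDM over saline was 0.06 in the labelled knockout and -0.09 in wild type, beside 1.88 and 1.22 for the 40 members on the same backgrounds; the difference between the lists was not tested, and the G1 to S cyclins Ccne1 and Ccne2 are among the members that rose. Of the 7, 3 rose and 2 fell in the labelled knockout, and 2 rose and 0 fell in wild type; Cdk2 rose in each (labelled knockout 0.53, wild type 0.43), as did the phosphatase Cdc25a (0.53 and 0.45 in the same groups), while Ccnd1, cyclin D1, fell in the labelled knockout (-0.38, adjusted p = 0.021). Of 10 inhibitors of cyclin-dependent kinases and pocket proteins, 2 rose and 2 fell in the labelled knockout, and 1 rose and 2 fell in wild type. Among all tested genes 26.2% were called higher and 25.7% lower in the labelled knockout, and 13.6% and 16.5% in wild type. Nothing particular to the G1 list or to this list is therefore read from the counts. The inhibitors Cdkn1c (-1.24 in the labelled knockout and -0.98 in wild type) and Cdkn2b (-1.06 in the labelled knockout and -0.70 in wild type) fell in both, and the pocket protein Rbl1 rose in both (0.95 in the labelled knockout and 0.39 in wild type). Rbl1 was higher in KO_HDM than in WT_HDM (0.36 ± 0.09, adjusted p = 0.0173), with an interaction of 0.56 (adjusted p = 0.0285).

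Of 11 other E2F and MYB factors, 6 rose and 1 fell in the labelled knockout, beside 26.2% of all tested genes called higher and 25.7% lower. In wild type 6 rose and 0 fell, beside 13.6% and 16.5%. In the labelled knockout the repressor E2f8 rose by 2.24, E2f3 by 1.03 and Mybl1, which is also on the germinal centre B cell marker list, by 2.48; in wild type E2f8 rose by 1.68, E2f3 by 0.62 and Mybl1 by 2.62. The one that fell in the labelled knockout was Tfdp2, an E2F partner (-0.54 ± 0.13, adjusted p = 0.00157).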
